A study of Mus musculus with 2 samples.

Results

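The genes described here are the mouse solute carrier (SLC) genes, the large group of families that encode most of the membrane carriers for sugars, amino acids, metals, nucleosides, ions and mitochondrial metabolites. They were chosen by 2 criteria: a symbol of the form Slc, a family number, a letter and a member number, and a level of at least 10 CPM in at least 1 of the 2 libraries. CPM is the summed UMI count of a gene per 1000000 UMIs of its library. Of 371 such symbols among the 27998 genes measured, 135 were members by this rule, and 236 fell below the minimum, 98 of them with no UMI in either library. Of the 135 members, 103 reached the minimum in both libraries, 20 in CD alone and 12 in Repop D5 alone. Because levels in these libraries chose the members, every comparison below is a description and carries no test. Just inside the minimum were Slc27a1 (10.1 CPM in its higher library), Slc12a4 and Slc25a23 (both 10.2 CPM), and just outside were Slc25a40 and Slc25a22 (both 9.91 CPM).

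Both groups were adult C57BL/6J mice of wild-type background. The CD library pooled cells of 4 mice kept for 19 days on a control diet. The Repop D5 library pooled cells of 6 mice given PLX5622, an inhibitor of the CSF1 receptor that depletes microglia, for 14 days and then the control diet for 5 days, during which microglia return. All mice were perfused, their brains digested with papain, freed of myelin on Percoll and sorted as live CD11b+/CD45+ cells, a gate that also admits other myeloid cells, before 10x Genomics libraries were made. Each group is 1 library, so mice, diet, sort and library cannot be told apart, and the 95% intervals hold counting error and no more.

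SLC carriers move solutes down gradients or in exchange for ions or other solutes, at the plasma membrane, in lysosomes or in the inner mitochondrial membrane. In microglia, the resident macrophages of the brain, they take up sugars and amino acids, export lactate and iron, and clear glutamate and nucleosides. Dividing and activated macrophages are known to draw more on glucose, glutamine and nucleobases, and several carrier genes respond to metal or amino acid supply.

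Sequences are shown first for the iron-responsive element, which the ferroportin gene is known to carry, an RNA hairpin bound by iron regulatory proteins when iron is scarce. Bound in a 5' UTR it blocks translation, as in the ferroportin gene Slc40a1 and the ferritin genes Fth1 and Ftl1, and in the 3' UTR of the transferrin receptor gene Tfrc it protects the transcript. GENCODE M21 transcripts of coding genes (mm10) were searched over their whole length, coding sequence included, on the transcribed strand. The pattern was a C, any 5 bases and CAGTG, then a base other than G and 5 bases pairing with those before the loop. A match was found in 222 of 21877 coding genes (1.01%). The search found 4 of the 135 members (Slc10a7, Slc35e1, Slc40a1 and Slc6a6), of which Slc40a1 alone differed by 2-fold or more between the libraries. Whether the matches of Slc10a7, Slc35e1 and Slc6a6 lie in a UTR was not determined. The windows of Slc40a1 (5' UTR, chr1:45925465-45925492, minus strand), Fth1 (5' UTR, chr19:9982733-9982760, plus strand), Ftl1 (5' UTR, chr7:45459779-45459806, minus strand) and the 5'-most of 4 matches in Tfrc (3' UTR, chr16:32631220-32631247, plus strand) are shown to let the iron genes below be compared. Capitals mark the bulged C and the CAGTG of the loop.
Slc40a1: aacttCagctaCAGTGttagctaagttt
Fth1: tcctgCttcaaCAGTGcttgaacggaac
Ftl1: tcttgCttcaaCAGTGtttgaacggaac
Tfrc: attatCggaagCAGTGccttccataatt

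The retained cells numbered 609 in CD, with 6055886 UMIs, and 553 of 585 in Repop D5, with 11037921 UMIs. The Repop D5 cells were deeper, with a median of 16226 UMIs per cell against 5982, and had a median of 4.78% of UMIs from mt- genes against 2.00%. The libraries share 1 barcode. In pairs of levels, CD comes first throughout. A floor of 3 counts corresponds to 0.495 and 0.272 CPM. Of the 12 microglia markers, 12 reached 10 CPM, and their summed level was 32578 and 13900 CPM. Neutrophil markers, 10 of 10 at 10 CPM, came to 13160 and 2104 CPM, and border macrophage markers, 10 of 10, to 1390 and 254 CPM, with Cd209f at 0 in Repop D5. Erythroid markers, 4 of 5, came to 1642 and 2.72 CPM, with Alas2 at 0 in Repop D5. The part of these cell types, of depth and of mitochondrial RNA in the carrier values was not tested, and in summed cells fewer cells of a type and less RNA per cell cannot be told apart.

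SLC symbols of any level took 0.726% of all UMIs in CD and 0.610% in Repop D5. A member was counted as higher or lower in Repop D5 when its CPM differed by at least 2-fold with an interval of the ratio clear of 1. By this rule 9 of 135 members (6.67%) were higher, beside 9.61% of all 8463 genes at 10 CPM, and 37 (27.4%) were lower, beside 23.8% of all genes. Since 8 of the 9 higher members entered through Repop D5 alone and 15 of the 37 lower ones through CD alone, nothing is read from these shares. The other 89 members were neither, 61 of them with an interval clear of 1 at under 2-fold and 28 with an interval that included 1. The median log2 ratio, taken after adding 1 CPM to each level, was -0.53 over the members and -0.38 over all genes at 10 CPM. This split depends on scaling. A trimmed-mean scaling adds 0.46 to every log2 ratio and brings the median of all genes to 0.05. With it 21 members were higher and 18 lower, or 15.6% and 13.3%, beside 17.6% and 10.9% of all genes at 10 CPM. A shift of 0.46 cannot turn a 2-fold difference, so the 46 members that differed by 2-fold had to keep their direction. Of the 135 members, 22 changed side. Calls also changed when each cell was thinned to 3000 UMIs in 1 seeded draw. Of the reported calls, 8 of the 9 higher and 24 of the 37 lower members then met the rule. Those that did not were Slc7a6 among the higher, and Slc12a2, Slc16a7, Slc23a2, Slc25a23, Slc25a28, Slc25a36, Slc27a1, Slc33a1, Slc35a5, Slc38a6, Slc43a2, Slc45a4 and Slc46a3 among the lower. Their thinned ratios were 1.95 for Slc7a6 and between 0.503 (Slc43a2) and 1.02 (Slc25a36) for the lower ones. Thinning moved the ratios of 11 members by over 1.5 times, and these values are given with each member. Thinning also discards counts, which widens intervals, and gives each cell the same weight, so the part of depth in these changes was not tested.

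**Figure D1:**
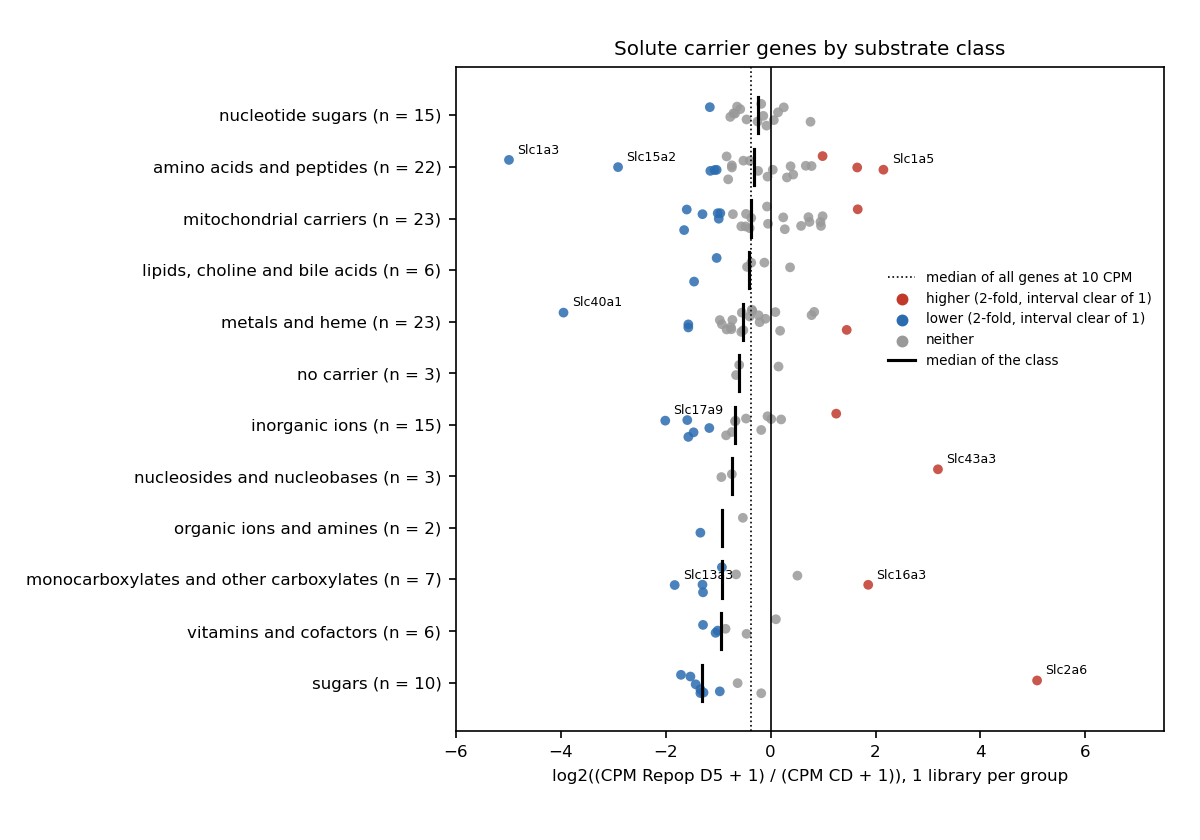
Each point is 1 of the 135 members, placed on the horizontal axis by its log2 ratio of Repop D5 to CD after 1 CPM was added to each level and by substrate class on the vertical axis, with black bars for class medians and a dotted line at the median of all genes at 10 CPM (-0.38). The sugar carriers have the lowest median (-1.31) but also the member farthest to the right, Slc2a6.

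Of 10 sugar carriers, 7 were lower in Repop D5, 2 were neither and 1 was higher, beside 23.8% lower and 9.61% higher among all genes. Their median log2 ratio was -1.31. With the trimmed-mean scaling 4 were lower, 5 were neither and the median was -0.89, beside 10.9% lower among all genes. As above, nothing is read from these shares. The higher member, which encodes GLUT6, a lysosomal member of the glucose transporter family, was Slc2a6 (ENSMUSG00000036067, chromosome 2, 27021363 to 27027998, mm10). It had 2.64 CPM in CD (95% interval 1.51 to 4.29, from 16 UMIs) and 122 CPM in Repop D5 (116 to 129, from 1352 UMIs). Of all members it had the highest ratio, 46.4 (28.4 to 81.3), or 30.2 with equal weight per cell, and its levels in the libraries do not come near each other.

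Slc2a5 (GLUT5, the fructose carrier by which microglia are often recognised; ENSMUSG00000028976, chromosome 4, 150119283 to 150144169) was the most abundant sugar carrier in CD by UMIs, at 295 CPM (281 to 309). In Repop D5 it stood at 89.3 CPM (83.8 to 95.1), 3.30-fold lower (3.05 to 3.57). The genes of GLUT6 and GLUT5 thus differed in opposite directions. Slc50a1 (SWEET1, a sugar exporter of the secretory pathway) had 98.3 and 33.4 CPM, 2.94-fold lower (2.58 to 3.36). The remaining lower members were Slc37a2, a sugar phosphate exchanger (2.76-fold), Slc5a3, the myo-inositol carrier (2.75-fold, and 4.43-fold in thinned cells), Slc2a3, the neuronal-type glucose transporter GLUT3 (2.70-fold), Slc2a8 (GLUT8, 2.62-fold) and Slc45a4 (2.03-fold). Slc5a3 shares exon sequence with Mrps6 on the same strand, so its count is uncertain. The 2 members that were neither had ratios of 0.621 and 0.878.

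The promoter of Slc2a6 is shown because this gene moved farthest upward among the members. Below are the 250 bases before its RefSeq start (GRCm38.p6, chr2:27027999-27028248, minus strand). Capitals mark CCAAT and its reverse complement, a box held on either strand by 41.1% of 27025 promoter windows of 300 bases.
Slc2a6: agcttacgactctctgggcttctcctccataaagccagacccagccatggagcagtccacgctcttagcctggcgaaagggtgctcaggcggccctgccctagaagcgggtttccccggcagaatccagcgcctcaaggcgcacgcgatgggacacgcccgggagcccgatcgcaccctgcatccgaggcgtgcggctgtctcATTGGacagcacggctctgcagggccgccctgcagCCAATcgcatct

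Among 12 genes of sugar use other than carriers, 2 were higher, 2 lower and 8 neither. Ldha, the lactate dehydrogenase subunit of glycolytic cells, had 163 and 552 CPM, for a ratio of 3.38 (3.16 to 3.62). Hk2, the hexokinase that traps glucose, was 2.54-fold lower (520 to 205 CPM), and Khk, the kinase for fructose, was 2.39-fold lower (105 to 43.7 CPM). The fructose carrier and the fructose kinase were both lower in Repop D5. The rule names Hk2 and Khk as the 2 lowest genes of this list, so the pairing is partly built in. The shift of 0.46 in log2 ratio with the trimmed-mean scaling would leave Hk2 and Khk short of 2-fold.

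Monocarboxylate and other carboxylate carriers held 1 higher, 4 lower and 2 neither members of 7, with a median log2 ratio of -0.93. With the trimmed-mean scaling 2 were higher and 1 lower, with a median of -0.51, and Slc16a6, Slc16a7 and Slc17a5 fell short of 2-fold. Slc16a3 (MCT4, the lactate exporter of glycolytic cells; ENSMUSG00000025161, chromosome 11, 120948480 to 120960868) had 36.5 CPM in CD (31.8 to 41.6) and 135 CPM in Repop D5 (128 to 142), a ratio of 3.70 (3.21 to 4.28). Slc16a6 (MCT7), the most abundant member of the class in CD, had 178 and 72.0 CPM, 2.47-fold lower (2.25 to 2.71). It overlaps another gene's exon on the same strand, so its count is uncertain. Slc13a3, the sodium-coupled dicarboxylate carrier, had 14.2 and 3.26 CPM, 4.35-fold lower (2.92 to 6.62), and 9.85-fold in thinned cells (3.08 to 50.3). Slc17a5 (sialin, the lysosomal exporter of sialic acid) was 2.64-fold lower and Slc16a7 (MCT2) 2.03-fold lower. Bsg, the chaperone that brings MCT4 to the plasma membrane, stood at 566 and 518 CPM, 1.09-fold lower (1.05 to 1.14), beside the higher lactate exporter. The Bsg difference is smaller than the 0.46 that the trimmed-mean scaling adds to every log2 ratio, so its direction depends on the scaling.

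The amino acid and peptide carriers, 22 members, divided into 3 higher, 5 lower and 14 neither. Their median log2 ratio was -0.32, and 0.13 with the trimmed-mean scaling, so the class has no direction that holds under both. All 3 higher members carry amino acids at the plasma membrane. Slc1a5 (ASCT2, a neutral amino acid exchanger that imports glutamine; ENSMUSG00000001918, chromosome 7, 16781340 to 16798274) had 7.10 CPM in CD (5.14 to 9.56) and 35.1 CPM in Repop D5 (31.7 to 38.7), a ratio of 4.94 (3.60 to 6.93). Slc7a1 (CAT1, which imports arginine and lysine; ENSMUSG00000041313, chromosome 5, 148327410 to 148399904) had 7.27 and 25.0 CPM, for a ratio of 3.44 (2.50 to 4.85), which was 7.43 in thinned cells (3.34 to 19.5). Slc7a6 (y+LAT2, which exchanges cationic for neutral amino acids) had 6.11 and 13.1 CPM, for a ratio of 2.15 (1.49 to 3.17).

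The most abundant amino acid carrier gene by UMIs, Slc3a2, encodes the CD98 heavy chain that Slc7a6 and other light chains need to reach the membrane. It had 246 and 252 CPM, for a ratio of 1.03 (0.964 to 1.09), where the light chain Slc7a6 was higher. With the trimmed-mean scaling the ratio of Slc3a2 was 1.41 and that of Slc7a6 was 2.95, so the near-equal level of the heavy chain depends on the scaling. Slc7a8 (LAT2), another light chain, had 165 and 115 CPM, for a ratio of 0.693 (0.638 to 0.754).

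The member with the lowest ratio of all was Slc1a3 (GLAST, a sodium-driven glutamate transporter; ENSMUSG00000005360, chromosome 15, 8634124 to 8710764). It had 167 CPM in CD (156 to 177, from 1009 UMIs) and 4.26 CPM in Repop D5 (3.13 to 5.66, from 47 UMIs), 39.1-fold lower (29.2 to 53.6), and in thinned cells 20.2-fold (11.4 to 39.7). Slc1a3 is best known from astrocytes. The 8 astrocyte markers summed to 30.2 and 17.6 CPM, with 1 of them at 10 CPM, and the part of astrocyte RNA in the Slc1a3 values was not tested. Slc15a2 (PEPT2, a proton-coupled peptide importer) had 19.5 and 1.72 CPM, 11.3-fold lower (6.94 to 19.5). It was 21.2-fold lower in thinned cells (3.45 to 875) and 17.9-fold with 1000 genes and 5% mt- as cell filter. The lower set was completed by Slc43a2 (LAT4, an exit path for branched-chain amino acids, 2.27-fold), Slc38a7 (SNAT7, the lysosomal glutamine exporter, 154 to 72.5 CPM, 2.12-fold) and Slc38a6 (2.12-fold). The 12 members that were neither and less abundant had ratios from 0.549 to 1.76.

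In the list of 18 genes of the amino acid response and of serine and glycine synthesis, 13 were measured at 10 CPM, of which 4 were higher, 3 lower and 6 neither. Shmt2 (mitochondrial serine hydroxymethyltransferase) had 11.6 and 65.5 CPM, for a ratio of 5.67 (4.43 to 7.35), and Mthfd2, the next enzyme of mitochondrial folate metabolism, 18.0 and 75.6 CPM, for a ratio of 4.20 (3.44 to 5.18). Phgdh, the enzyme that commits glucose carbon to serine, had 94.6 and 167 CPM, for a ratio of 1.76 (1.61 to 1.94). The stress response genes Ddit4 (34.0 to 4.89 CPM, 6.95-fold), Ddit3 (53.3 to 18.8 CPM, 2.84-fold) and Cebpb (158 to 62.1 CPM, 2.54-fold) were lower. The named enzymes and the named stress response genes lay on opposite sides, but the rule names the 2 highest and 2 lowest genes. Such a split is thus partly built in, and 6 of the 13 genes were neither.

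Metal and heme carriers numbered 23, with 1 higher, 3 lower and 19 neither and a median log2 ratio of -0.52. With the trimmed-mean scaling 3 were higher and 3 lower and the median was -0.09. Slc40a1 (ferroportin, the iron exporter whose element is printed above; ENSMUSG00000025993, chromosome 1, 45908068 to 45926523, minus strand) had 153 CPM in CD (143 to 163) and 8.97 CPM in Repop D5 (7.29 to 10.9), 17.0-fold lower (13.8 to 21.2), and in thinned cells 9.82-fold (6.33 to 16.0). Slc39a14 (ZIP14, an importer of zinc, manganese and free iron) was the higher member, with 6.94 and 20.7 CPM and a ratio of 2.99 (2.15 to 4.26). Slc11a1 (NRAMP1, the phagosomal carrier of iron and manganese), the most abundant by UMIs, had 134 and 239 CPM, for a ratio of 1.78 (1.65 to 1.93), just short of the 2-fold rule, which it passed with the trimmed-mean scaling (2.45). The iron exporter was thus lower and the importer Slc39a14 higher. Both are named because they met the rule, so the pair does not describe the iron carriers as a set.

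Slc30a4 (ZnT4, which loads zinc into vesicles) had 11.4 and 3.17 CPM, 3.59-fold lower (2.36 to 5.56), or 5.63-fold with the filter of 1000 genes and 5% mt-. Slc31a2 (CTR2, linked to copper release from endosomes) had 58.3 and 19.0 CPM, 3.06-fold lower (2.58 to 3.65). The 18 members of the class that were neither and less abundant had ratios from 0.503 to 1.76, and 5 of the 23 members in all had a ratio above 1, or 11 with the trimmed-mean scaling.

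Of 11 iron genes that are not carriers, 2 were higher, 2 lower and 7 neither. Fth1 and Ftl1, the ferritin chains that store iron, had 3291 and 3147 CPM in CD and 6742 and 5444 CPM in Repop D5, ratios of 2.05 (2.02 to 2.08) and 1.73 (1.70 to 1.76). Tfrc had 7.93 and 16.1 CPM, for a ratio of 2.03 (1.47 to 2.86). Cp, the ferroxidase ceruloplasmin that works with ferroportin, had 18.7 and 1.09 CPM, 17.2-fold lower (9.45 to 34.2). The exporter and its ferroxidase were both lower. Cp is named as the lowest gene of its list and had 12 UMIs in Repop D5, so nothing is read from the likeness of the factors. Of the 4 transcripts with a printed element, Slc40a1 was lower, and Fth1, Ftl1 and Tfrc had ratios above 1. Bach1, a repressor of heme and iron genes, was 2.66-fold lower (73.3 to 27.5 CPM).

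Of 8 zinc and copper genes, 2 were higher, 1 lower and 5 neither. Atox1, the copper chaperone, had 367 and 795 CPM (ratio 2.17, 2.07 to 2.27). Sod1, a copper and zinc enzyme, had 53.2 and 115 CPM (2.16, 1.91 to 2.45). Mt3, a metallothionein, was 2.84-fold lower (12.9 to 4.53 CPM). Mt1, the inducible metallothionein, had 214 and 349 CPM, for a ratio of 1.63 (1.53 to 1.73).

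Nucleoside and nucleobase carriers numbered 3. Slc43a3 (ENBT1, the equilibrative carrier for the purine bases; ENSMUSG00000027074, chromosome 2, 84936579 to 84958509) had 1.82 CPM in CD (0.907 to 3.25, from 11 UMIs) and 24.7 CPM in Repop D5 (21.9 to 27.8, from 273 UMIs), a ratio of 13.6 (7.49 to 27.6). The nucleoside carriers were neither and lay below 1. Slc29a3 (ENT3, of lysosomes) had 191 and 99.1 CPM, for a ratio of 0.519 (0.478 to 0.564). Slc29a1 (ENT1, of the plasma membrane) had 92.0 and 54.5 CPM, for a ratio of 0.593 (0.528 to 0.667). The base carrier and the nucleoside carriers thus differed in direction, also with the trimmed-mean scaling.

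Of 11 enzymes of nucleoside and base use, 5 were higher, 2 lower and 4 neither. Tk1, thymidine kinase of dividing cells, had 0.495 CPM (3 UMIs) and 72.7 CPM, for a ratio of 147 (50.1 to 714). Uck2, a uridine and cytidine kinase, had 0.991 and 15.6 CPM, for a ratio of 15.7 (7.08 to 43.5). Tk2, the mitochondrial thymidine kinase, was 4.07-fold lower (52.0 to 12.8 CPM), and Entpd1 (CD39, which degrades extracellular ATP) was 3.09-fold lower (266 to 86.0 CPM). Hprt, which salvages the purine bases that Slc43a3 carries, had 158 and 227 CPM, for a ratio of 1.44 (1.34 to 1.55).

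Mitochondrial carriers, 23 members, held the most abundant genes of the set by UMIs and took 1504 and 2005 CPM. Of these, 1 was higher, 6 lower and 16 neither, and the median log2 ratio of -0.37 became 0.07 with the trimmed-mean scaling, under which 7 were higher and 2 lower. Slc25a5 (ANT2, an ADP and ATP exchanger) had 486 and 799 CPM, for a ratio of 1.64 (1.58 to 1.72), and Slc25a3 (the phosphate carrier) 253 and 495 CPM, for a ratio of 1.96 (1.85 to 2.07). Slc25a5 has closely related copies in the genome, and how reads shared with them were counted is not given in the sources used here. Both bring substrates to the ATP synthase, and both had ratios above 1.

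Slc25a13 (citrin, the aspartate and glutamate exchanger) was the higher member, with 2.81 and 11.1 CPM and a ratio of 3.94 (2.36 to 6.98). Slc25a37 (mitoferrin-1, which brings iron into mitochondria and is best known from red cell precursors) had 59.8 and 18.4 CPM, 3.25-fold lower (2.73 to 3.88). Erythroid markers had 1642 and 2.72 CPM in the same cells, and in the microglia-like clusters described below, a class that did not pass the check for comparing libraries, Slc25a37 had 51.7 and 18.6 CPM. The part of erythroid RNA was not tested. Slc25a28 (mitoferrin-2) was 2.04-fold lower. The other lower members were Slc25a23 (an ATP and phosphate carrier regulated by calcium, 10.2 to 2.72 CPM, 3.77-fold, but 1.44-fold in thinned cells, 0.579 to 3.76), Slc25a45 (102 to 40.9 CPM, 2.49-fold), Slc25a20 (the acylcarnitine carrier of fatty acid oxidation, 2.12-fold) and Slc25a36 (a pyrimidine nucleotide carrier, 2.06-fold). Slc25a36 had a ratio of 1.02 in thinned cells (0.684 to 1.53), where Slc25a23 and Slc25a28 fell short of 2-fold too.

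Inorganic ion carriers, 15 members, included 1 higher, 5 lower and 9 neither, with a median log2 ratio of -0.68, and 4 were lower with the trimmed-mean scaling, with a median of -0.24. Slc20a1 (PiT1, the sodium-phosphate importer) was higher, with 8.42 and 21.4 CPM and a ratio of 2.54 (1.87 to 3.51). Slc17a9, grouped here by its family although it loads ATP into vesicles, had 15 and 2.99 CPM, 5.03-fold lower (3.34 to 7.73). Slc24a3 (a calcium exchanger) was 3.25-fold lower, Slc9a9 (NHE9, a proton exchanger of endosomes) 3.08-fold lower (103 to 33.3 CPM) and Slc12a2 (NKCC1) 3.06-fold lower (70.7 to 23.1 CPM), but 1.75-fold in thinned cells (1.23 to 2.52). Slc12a9, the most abundant of the class by UMIs, had 104 and 57.0 CPM and a ratio of 0.550 (0.491 to 0.615).

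Carriers of vitamins and cofactors, 6 members, held 3 lower and 3 neither, but 0 lower with the trimmed-mean scaling. Slc46a3, a lysosomal carrier, was 2.51-fold lower (59.9 to 23.9 CPM), Slc33a1, which brings acetyl-CoA into the endoplasmic reticulum, 2.15-fold lower, and Slc23a2, the vitamin C importer, 2.06-fold lower. Slc46a1, the proton-coupled folate importer, had 65.2 and 35.4 CPM, for a ratio of 0.543 (0.471 to 0.626). Of 6 lipid, choline and bile acid carriers, 2 were lower and 4 neither: Slc44a2, a choline carrier, was 2.82-fold lower (73.6 to 26.1 CPM) and Slc27a1, a fatty acid importer, 2.27-fold lower, but 1.44-fold in thinned cells (0.579 to 3.76). With the trimmed-mean scaling 1 of the 6 was lower and their median log2 ratio went from -0.41 to 0.02. Slc18b1, a vesicular polyamine carrier, was 2.93-fold lower (6.77-fold in thinned cells, 2.03 to 35.3), and Slc22a17, a receptor for lipocalin-2, had 31.7 and 21.7 CPM and a ratio of 0.683 (0.562 to 0.830).

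The nucleotide sugar carriers of the Golgi and endoplasmic reticulum (SLC35) were mostly neither higher nor lower by 2-fold. Of 15 members 1 was lower (Slc35a5, 46.2 to 20.2 CPM, 2.29-fold) and 14 were neither, and the median log2 ratio of -0.25 became 0.18 with the trimmed-mean scaling. Slc35c2 had 88.8 and 92.7 CPM, for a ratio of 1.04 (0.939 to 1.16), and Slc35b2, which carries the sulfate donor PAPS, 90.8 and 82.2 CPM, for a ratio of 0.905 (0.813 to 1.01). A further 3 symbols matched the naming rule but encode no carrier (Slc9a3r1, Slc7a6os and Slc4a1ap), and all 3 were neither.

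**Figure D2:**
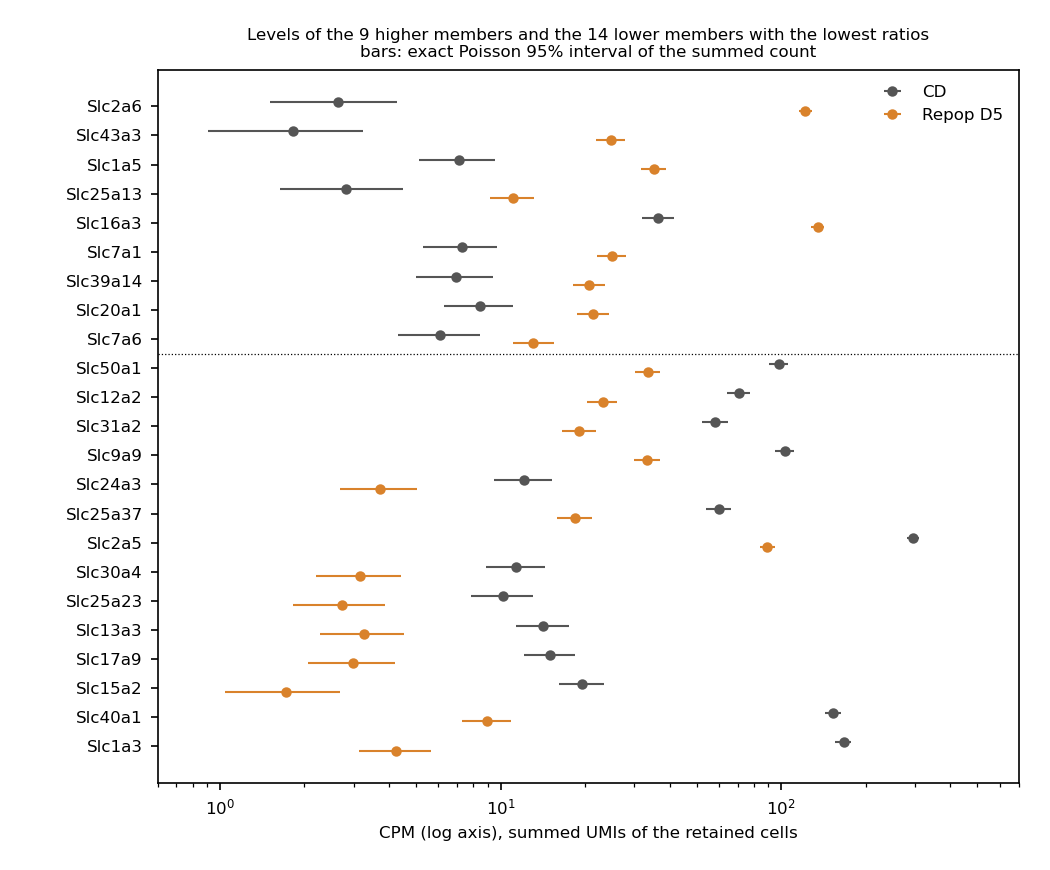
CPM on a log axis in CD (grey) and Repop D5 (orange) for the 9 higher members, above the dotted line, and the 14 lower members with the lowest ratios, below it, with bars for the exact Poisson 95% interval of the count. The intervals of the libraries are apart for every member shown, from Slc2a6 (2.64 and 122 CPM) at the top to Slc1a3 (167 and 4.26 CPM) at the bottom. The members shown were chosen by the rule for higher and lower on the same counts, so this separation is largely built in.

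Carriers without an Slc symbol and partner proteins were read the same way. Of 19 measured carriers and relatives with other symbols, 1 was higher, 4 lower and 14 neither. Slco2b1, an organic anion carrier of microglia, had 584 and 179 CPM, 3.26-fold lower (3.09 to 3.45), and Ctns, the lysosomal cystine exporter, was 2.68-fold lower (37.6 to 14.0 CPM). Spns2, the sphingosine-1-phosphate exporter, had 7.76 and 21.1 CPM, for a ratio of 2.72 (1.98 to 3.81). Of 9 partners of carriers, Laptm4b, which recruits an amino acid exchanger to lysosomes, was 3.89-fold lower (33.9 to 8.70 CPM) and 8 were neither.

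To see which cells carried the members, the cells were clustered on variable genes other than the 371 Slc symbols, which gave 11 clusters. Clusters 0 and 3 in CD and 1, 2, 4 and 6 in Repop D5 were microglia-like and together held 414 CD cells (68.0%) and 533 Repop D5 cells (96.4%). Cluster 5 (91 CD cells) was border macrophage-like and clusters 8 and 9 neutrophil-like, with 23 and 26 CD cells. Clusters 7 (led by MHC class II genes, 50 CD cells) and 10 (led by Plac8) stayed unnamed. Among Repop D5 clusters, 1 was led by Ch25h and Ass1, 2 by mitotic genes, 4 by interferon response genes such as Rtp4 and Irf7, and 6 by Tnf and Il1b. The names are rebuilt from markers with a naming threshold set after the clusters were seen. The microglia-like class did not pass the check for a comparison of libraries, since the neural progenitor marker Nes was among the leading genes of cluster 1 and no microglia marker was, so the counts and ratios given above are from sums over all cells. Nearly all cells of each of these clusters came from a single library, so such a cluster may stand for its library rather than for a type of cell. Levels are given for clusters with at least 20 cells of a library.

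In the microglia-like clusters alone, 12 members were higher (8.89%) and 35 lower (25.9%), beside 10.5% and 22.9% of all genes at 10 CPM. These sets kept 9 of the 9 higher and 32 of the 37 lower members of all cells. The clusters hold 68.0% of the CD and 96.4% of the Repop D5 cells that set those calls, so keeping them is largely built in. Ratios moved by over 1.5 times for 5 members. Slc2a6 went to 92.1, on 4 CD UMIs, and Slc20a1 to 3.99, while Slc13a3 became 6.61-fold lower and Slc15a2 5.71-fold lower. The fifth was Slc7a11 (xCT, the cystine importer that releases glutamate), named after its values were seen. In all cells it had 9.25 and 11.7 CPM, for a ratio of 1.26, but in the microglia-like clusters 1.68 and 10.9 CPM, for a ratio of 6.47 (2.70 to 20.3) on 5 CD UMIs. In CD it stood at 196 CPM in the neutrophil-like cluster 8 and 32.8 CPM in cluster 9, and at no more than 3.92 CPM in the other 4 CD clusters. In Repop D5 it was highest in cluster 6, that of Tnf and Il1b, at 27.4 CPM, against 3.98 to 7.71 CPM in the others.

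Slc2a6 was present in each of the 4 microglia-like Repop D5 clusters, at 151 CPM in cluster 1, 118 in cluster 2, 120 in cluster 6 and 65.7 in cluster 4. In CD it lay at 0.653 to 3.45 CPM in 5 clusters and at 59.7 CPM, from 7 UMIs, in the neutrophil-like cluster 8. Slc43a3 was more uneven, with 37.9 CPM in the mitotic cluster 2, 21.6 in cluster 6, 17.5 in cluster 1 and 1.99 CPM, from 2 UMIs, in the interferon cluster 4. Slc16a3 also stood lowest in cluster 4, at 44.8 CPM, and between 120 and 153 CPM in clusters 1, 2 and 6. In CD its highest level was 256 CPM in the neutrophil-like cluster 8, against 26.3 to 38.0 CPM in the other 5. Cluster 4 held the lowest Repop D5 level of these 3 genes, of all 9 higher members and of 68 of the 135 members. It also held the highest level of 33 members, beside 31 to 38 in clusters 1, 2 and 6. Cluster 4 had 1004531 UMIs against 2083224 to 4300812 in those clusters, and some of its levels rest on few counts (4 UMIs for Slc7a6). The same count over all genes was not made. SLC symbols took 0.542% of its UMIs against 0.616% to 0.625% in clusters 1, 2 and 6.

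Slc1a3 stood at 139 to 183 CPM in 5 of the 6 CD clusters, with no UMI in cluster 8, and at 2.79 to 9.95 CPM in the 4 Repop D5 clusters. Slc40a1 ranged from 93.8 to 185 CPM in CD, highest in the border macrophage-like cluster 5, and from 6.28 to 19.9 CPM in Repop D5, highest in cluster 4. The lowest CD cluster for Slc40a1, cluster 8 with 11 UMIs, was above its highest Repop D5 cluster. For Slc1a3 the same held for every CD cluster but cluster 8. Both genes were named for low ratios in the summed cells, so this separation largely restates that choice. Clusters of 1 library are not replicates, and no such comparison was made over all genes. The CD clusters named for other cells also held microglial RNA: microglia markers summed to 31317 CPM in cluster 5 and 31576 CPM in cluster 9, against 37113 CPM in cluster 0 and 6576 CPM in cluster 8. Levels of microglial carriers there were not separated from that RNA. Slc2a3, the lower glucose carrier, had 136 CPM in cluster 8 and 17.4 to 34.5 CPM in the other CD clusters. Slc15a2 was at 30.7, 27.4 and 32.8 CPM in CD clusters 5, 7 and 9 and at 11.7 and 8.53 CPM in clusters 0 and 3, and Slc13a3 was highest in cluster 3 (28.4 CPM) and lowest in cluster 5 (3.26 CPM).

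**Figure D3:**
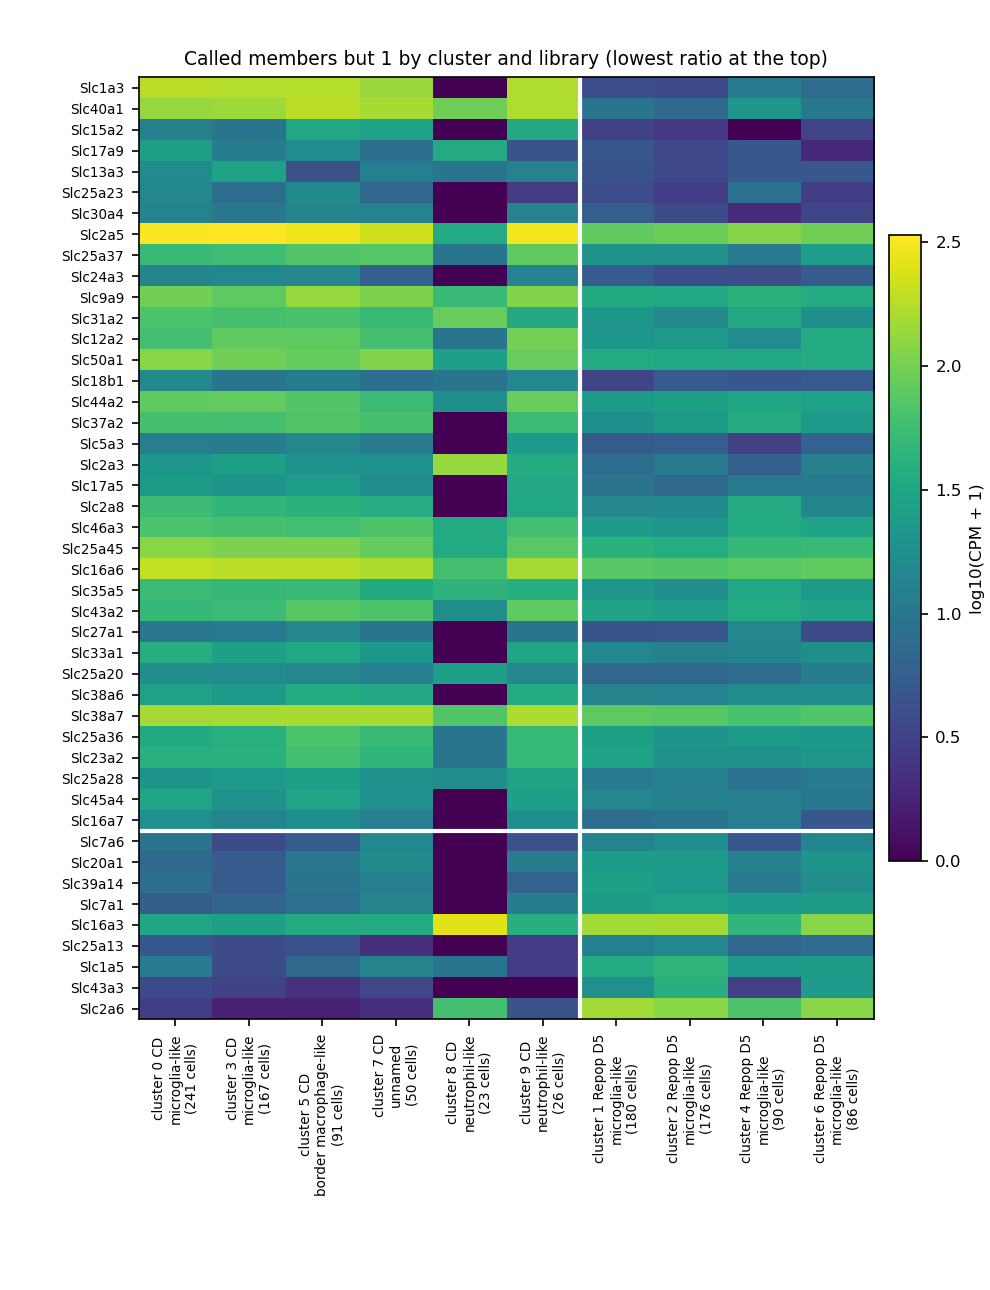
Colour gives log10(CPM + 1) of members that differed by 2-fold (all but 1 of the 46 as rows, lowest ratio at the top, the 9 higher ones below the white line) in the summed cells of each cluster with at least 20 cells (columns, CD left of the white line). Slc40a1 is bright in all CD clusters (93.8 to 185 CPM), Slc1a3 in all but cluster 8 (0 CPM), and both are dark in Repop D5, and Slc2a6 is bright in Repop D5 and, in CD, in cluster 8 alone.

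To compare detection at 1 depth, each cell was thinned to 3000 UMIs, which kept 599 CD and 553 Repop D5 cells. Slc2a6 was detected in 1.00% of CD cells (exact 95% interval 0.368 to 2.17) and in 29.7% of those from Repop D5 (25.9 to 33.7), and before thinning in 2.30% and 77.8%. Slc43a3 was found in 0.501% (0.103 to 1.46) and 6.15% (4.30 to 8.49), before thinning in 1.64% and 30.7%. Slc16a3 was found in 11.2% (8.77 to 14.0) and 30.6% (26.7 to 34.6), before thinning in 27.4% and 75.9%. At this depth such shares follow the CPM and do not count the cells that express a gene. Slc1a3 was detected in 32.7% of CD cells (29.0 to 36.6) and in 1.45% of those from Repop D5 (0.627 to 2.83), and before thinning in 57.6% and 7.41%. Slc40a1 was found in 32.7% (29.0 to 36.6) and 2.89% (1.66 to 4.66), before thinning in 58.9% and 13.6%. Slc3a2, with near-equal CPM by library totals, was found in 50.1% and 49.9% of cells.

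For comparison, the 48 thinned neutrophil-like CD cells (median 8646 UMIs before thinning, against 5982 in all CD cells) gave 8.33% (2.32 to 20.0) for Slc2a6, above all CD cells. They gave 22.9% (12 to 37.3) for Slc1a3, 33.3% (20.4 to 48.4) for Slc40a1 and 33.3% for Slc16a3. For Slc43a3 they gave 0 of 48, and a limit of 3 counts allows a share of up to 6.25% with a UMI, which is no bound on expression. Their cluster 8 had the highest CD levels of Slc2a6 and Slc16a3, so their shares give no background for these genes. For Slc40a1 and Slc1a3 they include cluster 9, which held microglia markers at 31576 CPM. In Repop D5, 7 cells were neutrophil-like, too few for such a share.

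**Figure D4:**
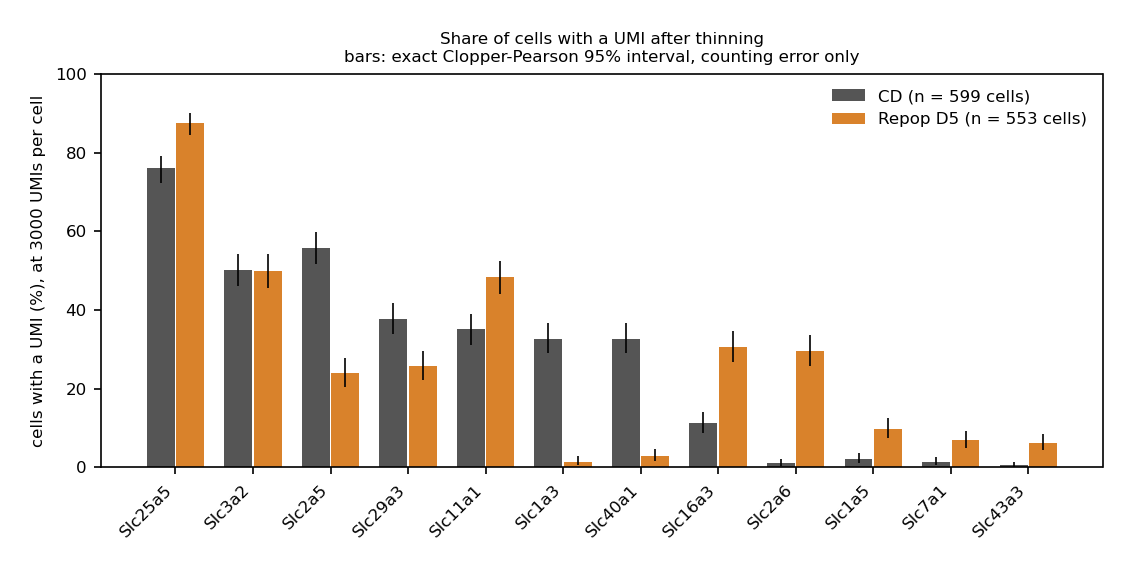
Bars give the percentage of cells with at least 1 UMI of each of 12 members after thinning to 3000 UMIs per cell, in CD (599 cells, grey) and Repop D5 (553 cells, orange), with exact Clopper-Pearson 95% intervals. Slc1a3 and Slc40a1 stand high in CD (32.7% each) and Slc2a6 in Repop D5 (29.7%), while the Slc3a2 bars are level (50.1% and 49.9%).

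Promoters were available from RefSeq for 104 of the 135 members. The E-box CACGTG, the palindrome that MYC, USF and TFEB family factors can bind, was found between 250 bases before and 50 bases after the start in 20 of 104 members (19.2%), 831 of 6557 genes at 10 CPM (12.7%) and 2187 of 27025 genes (8.09%). It was found in 2 of the 6 higher members with a promoter (Slc20a1 and Slc25a13), 7 of the 28 lower ones and 11 of the 70 others. The antioxidant response motif TGACNNNGC was in 26 of 104 members (25.0%) and 17.2% of genes at 10 CPM, and TGATGNAA, the motif of the amino acid response, in 4 of 104 (3.85%) and 2.76%. Both strands were searched, and a match is a run of letters, not a site shown to be bound. The windows of 30 bases with the E-box in capitals are shown for both higher members and for 3 lower members of other classes: Slc20a1 (chr2:129198739-129198768, plus strand), Slc25a13 (chr6:6217281-6217310, minus strand), Slc13a3 (chr2:165473334-165473363, minus strand), Slc31a2 (chr4:62286417-62286446, plus strand) and Slc38a7 (chr8:95853508-95853537, minus strand).
Slc20a1: ggctcggcaggtCACGTGgggcgcagaacc
Slc25a13: cacagtctgagtCACGTGtcctggcccctc
Slc13a3: tgccccatttccCACGTGagtccagagtgg
Slc31a2: acctcaccgggcCACGTGactcgcgtggcc
Slc38a7: gtgattcaggctCACGTGttacttgagtcg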

How the data were processed

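The deposited values are raw counts of UMIs for each gene in each barcode, made by the authors with Cell Ranger 2.1.0 on mm10 per the submitters' processing notes. The annotation release and the use of strand are not given in the sources used here. Barcodes with 500 or more genes and under 10% mt- UMIs were kept, counts were summed per library and divided by the library total (CPM), and ratios carry the exact conditional binomial 95% interval of a pair of Poisson counts, a procedure tested on simulated data. PCR and pooling add error that these intervals do not hold. No test between groups was possible with 1 library each. Thinned ratios come from 1 seeded draw. Thinned shares are the median of 20 seeded draws with exact Clopper-Pearson intervals. No doublets were removed from the values reported.

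Members were assigned to substrate classes by family. The rule named all members that differed by 2-fold and the 2 most abundant of each class, and from each list the 2 highest, 2 lowest and 2 most abundant genes. Some genes it names are not reported here. Members, classes and lists were chosen with earlier results of these data known. Clustering used scanpy 1.11.5 (2000 variable genes, 30 principal components, 15 neighbours, Leiden resolution 1). A cluster with 3 or more markers of another class among its 10 leading genes took that name, and with 2 stayed unnamed. edgeR 4.0.16 gave the trimmed-mean scaling and no test. All 135 gene identifiers were found in GENCODE M21, the source of coordinates. Of the members, 9 overlap another gene's exon on the same strand and 38 on the opposite strand. Alternatives to filter, scaling, depth, doublets, minimum, fold and pseudocount, and a pooled matrix of both libraries that the authors deposited, were run.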

Additional observations from a re-analysis of the deposited data

How the results depend on the processing

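The count of higher members, 9, became 21 with the trimmed-mean scaling, 17 with totals that leave out mt- and ribosomal protein genes, 2 of 42 members at a minimum of 50 CPM and 20 at a fold of 1.5. The count of lower members, 37, became 18, 24, 16 and 66 in the same order, and 67 of 273 symbols with no minimum. The share of higher among both was 19.6% in the values reported, 53.8% with the first of these scalings and 41.5% with the second. Among all genes at 10 CPM, 813 were higher and 2015 lower in the values reported. These counts were 1487 and 920 with the first scaling, and 1184 and 1296 with the second. The median log2 ratio of -0.53 became -0.60 with 1000 genes and 5% mt- as cell filter, -0.09 with the trimmed-mean scaling, -0.28 without mt- and ribosomal protein genes, -0.46 with equal weight per cell, -0.38 in thinned cells, -0.54 without called doublets (3 CD and 12 Repop D5 cells), -0.52 without the 5% of cells with the most UMIs, -0.78 at 50 CPM, -0.40 with no minimum and -0.37 with a pseudocount of 10 CPM. Its sign was negative under each of these. Of 620 ratios (62 named members under 10 settings), 480 stayed within the counting interval of the reported ratio, 139 moved and 1 reversed. Only members that differed by 2-fold could be counted as reversed. The reversed ratio was that of Slc25a36, 1.02 in thinned cells, and the cause was not tested. Named members that were neither also crossed 1. Slc35b2 went from 0.905 to 1.24 with the trimmed-mean scaling, and Slc3a2 from 1.03 to 0.953 in thinned cells. No paired analysis was possible because each group is 1 library, and for the same reason no library could be left out. Members near the minimum, and shares near 1% of cells, rest on few counts.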
